A study of Mus musculus with 6 samples.

Results

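Nuclei with the marker genes of layer 6 corticothalamic neurons were examined in the forebrain of mice at postnatal day 16. They were selected on their own counts of unique molecular identifiers (UMIs, each standing for 1 captured transcript). A nucleus was taken if it held at least 10 UMIs of Hs3st4, at least 2 UMIs of at least 2 of Foxp2, Tle4 and Zfpm2, at least 1 UMI of Slc17a7, at most 1 UMI of Tfap2d, at most 1 UMI of Gad1 and Gad2 together, and a mitochondrial share under 10%. These limits were met by 2341 of 75867 nuclei, or 3.09% (95% Clopper-Pearson interval 2.96 to 3.21). The nuclei came from 3 WT and 3 Npc1-/- mice, all untreated littermates from Npc1+/- parents of BALB/cJ and C57BL6/J background that carry the Npc1 nih allele. The allele removes the lysosomal cholesterol transporter NPC1 in every cell, so no group isolates its loss in neurons. Each mouse gave 1 droplet library of single-nucleus RNA sequencing (snRNA-seq), and a number from 1 to 6 at the end of each barcode gives its library. No source used here ties these numbers to mice. WT and Npc1-/- nuclei were therefore not compared, and each value is given by library or as the lowest, median and highest of 6 libraries, without treating libraries as replicates of a genotype.

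Corticothalamic neurons lie in layer 6 of the neocortex and send glutamatergic axons to the thalamus, with collaterals to the reticular nucleus and to layer 4. They modulate the relay of sensory signals and receive cholinergic and orexin input. During development the transcription factors TBR1 and SOX5 set their fate apart from that of the layer 5 neurons that project to the brainstem and spinal cord and depend on FEZF2 and BCL11B (CTIP2). FOXP2 and the Groucho co-repressor TLE4 are transcriptional repressors and standard markers of these cells. ZFPM2 (FOG2) is a cofactor of GATA and NR2F factors, and HS3ST4 is a sulfotransferase that adds a sulfate group to heparan sulfate chains. SLC17A7 (VGLUT1) loads glutamate into vesicles, GAD1 and GAD2 make GABA, and Tfap2d marks excitatory neurons of the amygdala.

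The 6 libraries held between 8217 and 16118 barcodes and between 51343653 and 107583300 UMIs. The gate took 368, 455, 416, 411, 370 and 321 nuclei in libraries 1 to 6. These were 2.67%, 2.83%, 2.81%, 3.37%, 3.43% and 3.91% of the nuclei, with intervals of 2.41 to 2.96 in the first library and 3.50 to 4.35 in the last. Intervals cover counting error only. The intervals of libraries 5 and 6 did not overlap those of libraries 1, 2 and 3. For library 5 this was narrow, with a lower end of 3.093 against upper ends of 3.092 in libraries 2 and 3. The interval of library 4 (3.06 to 3.71) did not overlap that of library 1. The selected nuclei were deep, with a median of 10181 UMIs (5th to 95th percentile 5032 to 25168) and 3491 genes, against medians between 4471 and 5439 UMIs for all nuclei of a library. Of the selected nuclei, 429 lay above the 95th percentile of UMIs of their own library. No doublet caller was run, so pairs of nuclei in 1 droplet may be among them. Across the series 631 barcode sequences occurred in more than 1 library. They included 40 carried by a selected nucleus, and 2 that were carried by selected nuclei in both libraries.

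**Figure D1:**
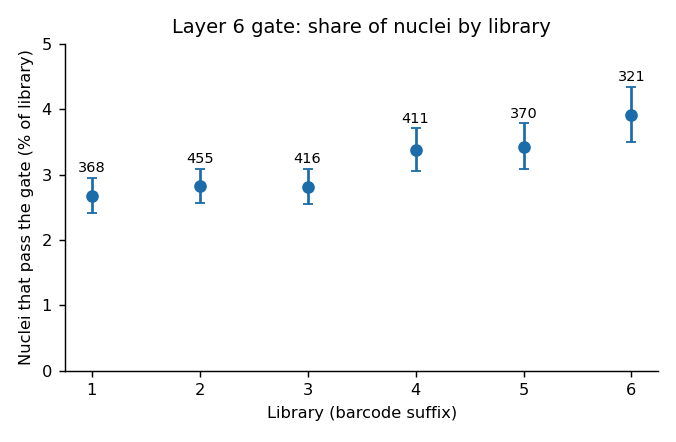
Share of nuclei that passed the gate (y axis, % of the nuclei of a library) in each of the 6 libraries (x axis), with exact 95% binomial intervals and the number of selected nuclei above each point. The share ran from 2.67% in library 1 to 3.91% in library 6.

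In GRCm38, Hs3st4 lies at chr7:123982869-124398989 (plus strand), Foxp2 at chr6:14901349-15441977 (plus), Tle4 at chr19:14448150-14598051 (minus) and Zfpm2 at chr15:40655035-41104592 (plus), all as protein-coding genes. The limits were applied in a fixed order with Hs3st4 first, so their counts do not rank the genes. At least 10 Hs3st4 UMIs were found in 7003 nuclei. The limits on Foxp2, Tle4 and Zfpm2 left 4153, Slc17a7 left 2928, Tfap2d left 2906, and the limit on Gad1 and Gad2 removed a further 565. The values of these genes in the selected nuclei are a description of the gate. Hs3st4 had a median of 29 UMIs per nucleus (5th to 95th percentile 11 to 75). Its level was 2838, 2714, 3069, 2846, 2761 and 2683 CPM (UMIs of a gene per 1000000 UMIs of the gated nuclei of a library) in libraries 1 to 6. Foxp2 was at 424 to 563 CPM, Tle4 at 466 to 579 CPM and Zfpm2 at 959 to 1260 CPM. Microglia of the same libraries were taken as a class outside neurons. In them Hs3st4 was at 366 CPM over 982 nuclei and at 177 CPM over the 710 with at most 10000 UMIs. Foxp2, Tle4 and Zfpm2 were at 192, 170 and 310 CPM over the 982, and at 124, 201 and 200 CPM over the 710. Of these genes only Tle4 was higher over the 710 than over the 982, and it was at 159 CPM over all nuclei. Free RNA, droplets with more than 1 nucleus and transcripts of the microglia themselves cannot be told apart in these values. At least 10 Hs3st4 UMIs were found in 88 of the 982 microglia (8.96%, 7.25 to 10.9), close to the 9.23% of all nuclei, so this limit alone did not separate the classes. Among the 710 shallower microglia, whose median depth was 3116.5 UMIs, 4 reached it (0.563%, 0.154 to 1.44).

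All of Foxp2, Tle4 and Zfpm2 reached 2 UMIs in 1476 of the selected nuclei (63.1%). A further 540 (23.1%) had Tle4 and Zfpm2 at 2 UMIs with at most 1 UMI of Foxp2, 193 had Foxp2 and Zfpm2, and 132 had Foxp2 and Tle4. These nuclei were unlike each other in genes outside the gate. The synaptotagmin Syt6 (chr3:103575231-103645569, plus strand) was at 136 CPM in nuclei with all 3 markers and at 31.5 CPM in those with at most 1 Foxp2 UMI. Zbtb20, a transcription factor of hippocampal pyramidal neurons, was at 259 CPM with all 3 markers and at 1207 CPM with at most 1 Foxp2 UMI. The 120 nuclei just inside the Hs3st4 limit, at 10 or 11 UMIs, had a median of 7662 UMIs, 334 CPM of Foxp2, 59.2 CPM of Syt6 and 664 CPM of Garnl3. The 140 nuclei just outside it, at 8 or 9 UMIs and meeting all other limits, had a median of 9324 UMIs, 292 CPM of Foxp2, 60.1 CPM of Syt6 and 558 CPM of Garnl3.

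The label was set beside genes that the gate did not use. These gene lists were chosen with earlier results of these data known, so counts of their calls are a description and no independent support. The selected nuclei were compared with 2582 other excitatory nuclei (at least 3 Slc17a7 UMIs, at most 2 of Hs3st4, at most 1 of Gad1 and Gad2) of similar depth, at a median of 10440 UMIs, and with 1474 upper-layer Cux2 nuclei (at least 5 Cux2 UMIs, at least 1 of Slc17a7, at most 2 of Hs3st4), at a median of 11183.5 UMIs. Both comparisons share the selected nuclei, and 502 Cux2 nuclei also belong to the other excitatory nuclei. A gene was called higher or lower when its level differed at least 2-fold in the same direction in each of the 6 libraries, and ratios are log2 ratios of CPM plus 1, given as the median of 6 libraries. These are descriptions of a gated cell type and carry no test. The limit of 2 Hs3st4 UMIs uses a gate gene and lowers it in each excitatory comparison class. Hs3st4 was at 49.7 CPM in the other excitatory and at 43.2 CPM in the Cux2 nuclei. In microglia with at most 10000 UMIs it was at 177 CPM. After thinning to 5000 UMIs, Syt6 was found in 1.82% of the other excitatory nuclei and in 13.0% of microglia. The part of this limit in the ratios of other layer 6 genes was not tested.

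Of 9329 genes tested against the other excitatory nuclei, 66 (0.707%) were called higher and 73 (0.783%) lower, with a median log2 ratio over all genes of -0.01. The 16 layer 6 corticothalamic identity genes outside the gate summed to 4293 to 4812 CPM in the selected nuclei. They summed to 1790 to 2110 CPM in the other excitatory nuclei and to 2130 to 2623 CPM in microglia. Neither range overlapped that of the selected nuclei, and that of microglia lay above that of the other excitatory nuclei. A gene was tested at 10 CPM or more in either class, which left out Ctxn3, and Fezf2 was left out because it defines a comparison class used below. Of the 14 tested, Syt6, Sla, Rprm and Ntsr1 reached 10 CPM in the selected nuclei only, so that their entry favoured a higher level there, and counts that include them are a description. Of the 10 at 10 CPM or more in both classes, Grik3, Garnl3, Thsd7b and Sulf1 were called higher and 0 lower, where 42 higher and 53 lower genes were called among all 8648 such genes. Syt6 and Sla met the call as well. Syt6 stood at 80.7, 82.9, 126, 127, 120 and 94.8 CPM in libraries 1 to 6, and at 5.195, 4.98, 7.69, 11.7, 3.15 and 3.41 CPM in the other excitatory nuclei, a log2 ratio of 3.84 (3.33 to 4.87 over libraries) and the first in rank. Every library had at least 10 times as much Syt6 in the selected as in the other excitatory nuclei. Garnl3, a GTPase-activating-like protein, stood at 916 to 1085 CPM against 216 to 301 CPM. Grik3, a kainate receptor subunit, stood at 332 to 455 CPM against 67.5 to 107 CPM, and Thsd7b at 603 to 742 CPM against 150 to 188 CPM. The groups did not overlap for any of these genes.

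The other identity genes were less distinct. Tbr1 (median 22.8 against 11.2 CPM), Bcl11b (185 against 103 CPM), Nfia (423 against 211 CPM) and Crym (61.9 against 36.3 CPM) had ratios between 0.76 and 1.02 without a 2-fold difference in every library, and Foxp1 and Sox5 had ratios of 0.56 and 0.46. Ctxn3 had 18 UMIs in all and was not tested. Rprm and Ntsr1, which mark these neurons in reporter mice, gave few UMIs. Ntsr1 stood at 8.42 to 13.1 CPM, against 1.89 to 8.01 CPM in the other excitatory nuclei. When every nucleus of at least 5000 UMIs was thinned to that depth, 5.71% of 2226 selected nuclei had a UMI of Rprm (11.2% unthinned). The share was 4.86% in 432 microglia (3.03 to 7.34, 6.52% unthinned), a class that should lack it. These intervals overlapped, so a share above that of microglia was not shown. The share was 2.73% in the other excitatory (2.11 to 3.48, 5.81% unthinned) and 2.73% in the Cux2 nuclei (1.95 to 3.71, 5.29% unthinned), below the 4.78 to 6.75 of the selected nuclei. The same shares were 36.1% against 13.0% for Syt6 (50.5% against 13.8% unthinned), 5.08% against 1.62% for Ntsr1 (10.6% against 3.36% unthinned) and 8.94% against 2.31% for Fezf2 (16.8% against 4.07% unthinned). Median depths before thinning were 10181 UMIs over all selected nuclei and 4123.5 UMIs over all microglia. Of these, 115 selected nuclei and 550 microglia were too shallow to enter. The microglia compared were thus the deeper ones. At least 10 Hs3st4 UMIs were found in 8.96% of all microglia and in 0.563% of those with at most 10000 UMIs. The part of mixed droplets in these shares was not tested. Sla was at 13.4 to 15.7 CPM in the selected nuclei but at a median of 39.5 CPM in microglia, and it is also a gene of immune cells.

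**Figure D2:**
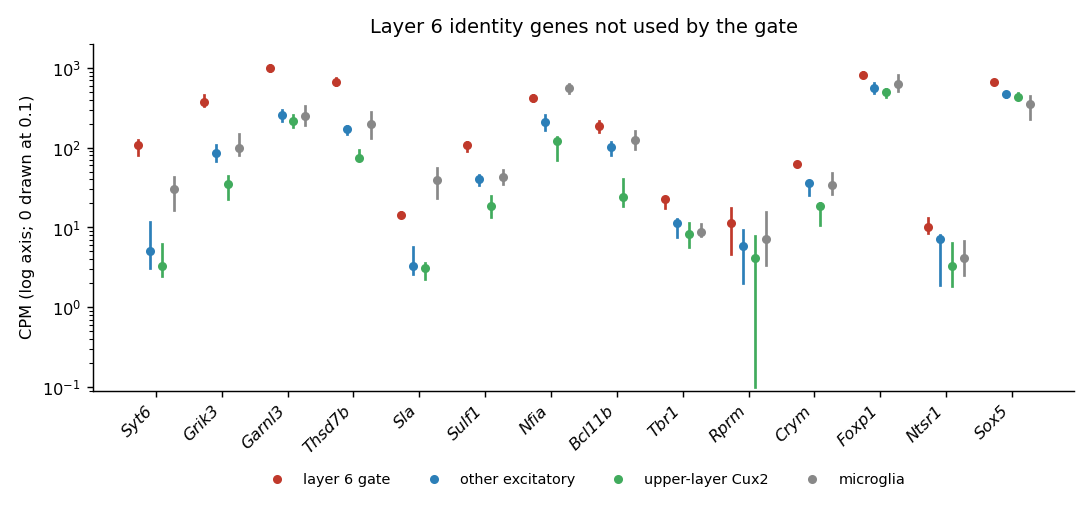
Level of 14 layer 6 identity genes (x axis) in CPM (y axis, log scale, 0 drawn at 0.1) in the selected nuclei, other excitatory nuclei, upper-layer Cux2 nuclei and microglia. Points are medians of 6 libraries and lines run from the lowest to the highest library; Syt6, Grik3, Garnl3, Thsd7b and Sulf1 of the selected nuclei lie clear of all other classes, and Rprm does not.

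Against the upper-layer Cux2 nuclei, 160 of 9291 genes (1.72%) were called higher and 112 (1.21%) lower. Of the same identity list, 9 genes at 10 CPM or more in both classes held 7 called higher and 0 lower, and Syt6 and Sla, at that level in the selected nuclei only, met the call too. The 7 were Grik3, Garnl3, Thsd7b, Sulf1, Nfia, Crym and Bcl11b. Bcl11b stood at 157 to 216 against 18.8 to 40.0 CPM (ratio 2.66), and Nfia and Crym, a thyroid hormone-binding protein, had ratios of 1.88 and 1.70. Upper-layer genes ran the other way. Of 8 tested, 4 were called lower and 0 higher, at a median ratio of -1.89. Cux1 stood at 98.3 against 444 CPM, Rasgrf2 at 60.0 against 227 CPM, Lamp5 at 10.8 against 56.3 CPM and Calb1 at 17.3 against 64.2 CPM (medians). Against the other excitatory nuclei 3 of the 8 genes, Rasgrf2, Lamp5 and Otof, were called lower, of which Otof was below 10 CPM in the selected nuclei.

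A comparison with layer 5 neurons had been intended with at least 3 Fezf2 UMIs, but only 6 nuclei met that limit. With at least 1 Fezf2 UMI, a limit chosen after seeing this, there were 661 nuclei at a median of 6878 UMIs, and 129 of them were also among the other excitatory nuclei. Of 9918 genes, 53 (0.534%) were called higher and 48 (0.484%) lower, and TMM scaling, which moves the median ratio of all genes from -0.11 to 0.09, gave 74 and 20. The count of lower genes was 73 without library 6. Syt6 (2.68), Garnl3 (1.73), Thsd7b (2.35), Grik3 (1.94) and Sulf1 (2.26) were called higher, and the layer 5 genes Bcl6 (-2.06) and Vat1l were called lower. Bcl11b had a ratio of -0.03, with a median of 185 CPM against 188 CPM. The 6 astrocyte genes summed to 1125 to 3735 CPM in the Fezf2 nuclei and to 1065 to 1541 CPM in the selected nuclei, and Aqp4 and Gpc5 were among the genes called lower. The part of astrocyte RNA in this comparison was not tested.

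By the size of the ratio to the other excitatory nuclei, and among called genes at 50 CPM or more, the genes that followed Syt6 were Rai14, an actin-binding protein (114 against 15.04 CPM, ratio 2.96), Cdh18, Sema5b, Rell1, Grik3, Glra2, Tmem178, Garnl3, Ptk7, Rnf152, Thsd7b, Dlc1, Mgat4c and Slc16a10. Cdh18, a classical cadherin, was at 2763, 2415, 2670, 2198, 3031 and 2800 CPM in libraries 1 to 6, against 341 to 425 CPM, and its ratio was 2.88. Glra2, the glycine receptor subunit of immature neurons, stood at 76.6 against 17.2 CPM, and Slc16a10, a transporter of aromatic amino acids and thyroid hormone, at 88.0 against 26.7 CPM. The lowest genes were Pparg, Syt17, Pdzrn3, Gm2164, Ndst4, Gpc6, Tafa1, L3mbtl4, Ntng2 and Mkx. Pdzrn3, a ubiquitin ligase of the synapse, was at 134, 191, 131, 154, 134 and 156 CPM in libraries 1 to 6 and at 543 to 620 CPM in the other excitatory nuclei (ratio -1.93). The secreted protein Tafa1 stood at 588 to 899 against 1918 to 2743 CPM, and the nuclear receptor Pparg at 16.4 to 30.2 against 83.2 to 120 CPM.

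**Figure D3:**
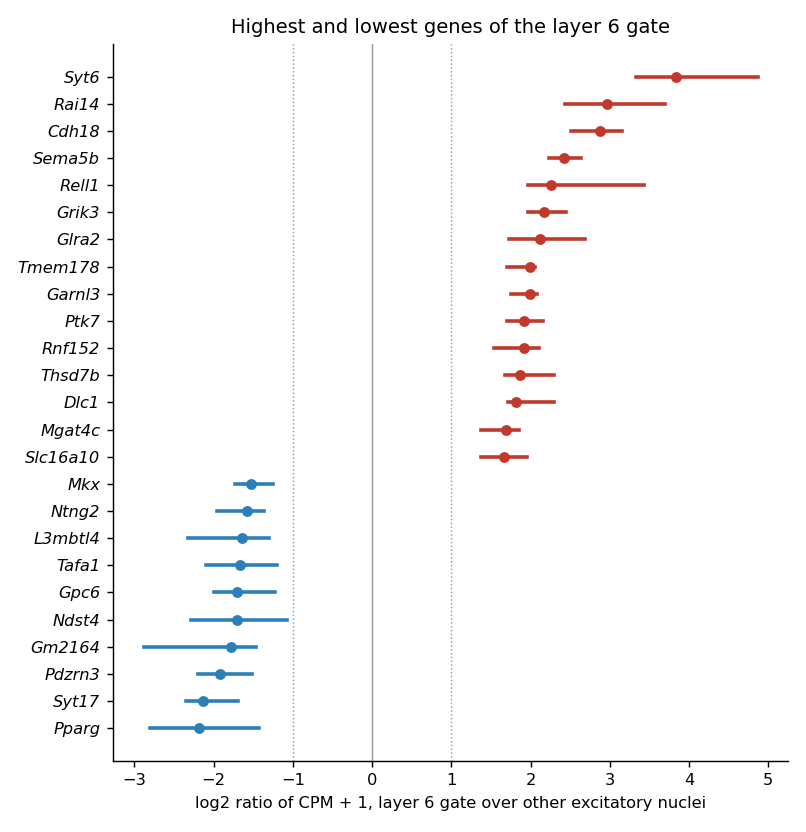
The 15 highest and 10 lowest genes (y axis) by the log2 ratio of CPM plus 1 of the selected to the other excitatory nuclei (x axis). Points are medians of 6 libraries, lines run from the lowest to the highest library, and dotted lines mark a 2-fold difference; Syt6 leads at 3.84 and Pparg is lowest at -2.19.

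The lists of receptors, channels and adhesion genes were read against the shares of all genes called, 0.707% higher and 0.783% lower than in the other excitatory nuclei and 1.72% and 1.21% for the Cux2 nuclei. At these shares a list of this size is likely to hold few calls or 0, so the counts give no result about a list as a whole, and the values are those of single genes. Of 37 axon guidance genes tested, 3 were called higher and 3 lower than in the other excitatory nuclei, at a median ratio of -0.21. Among ligands, Sema5b was higher (101 to 152 against 15.4 to 29.9 CPM) and Slit3 lower (344 to 486 against 1065 to 1180 CPM). Among receptors, Nrp1, which binds class 3 semaphorins and VEGF, was higher (291 to 382 against 96.8 to 140 CPM), as was Ephb1 (289 to 371 against 112 to 175 CPM), and the netrin receptor Unc5d was lower (283 to 398 against 751 to 890 CPM). Ntng2, a netrin-G protein, was lower as well (21.1 to 34.4 against 64.1 to 114 CPM). Against the Cux2 nuclei Slit1, Sema3e and Sema5a were also called higher, with ratios of 1.77, 2.37 and 1.95. The netrin receptor Dcc had ratios of 0.41 and 0.60 and passed the call in neither comparison. Of 18 cadherins tested, Cdh18 was higher and Cdh7 lower (12.9 to 26.9 against 39.3 to 65.2 CPM). Cdh2 and Cdh11 stood at 468 and 554 CPM against 258 and 304 CPM, short of 2-fold, while Cdh12, Cdh10 and Cdh8 had ratios of -0.84, -0.83 and -0.79.

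Of 16 heparan sulfate genes other than the gate gene, 2 were called higher and 1 lower than in the other excitatory nuclei (0.707% and 0.783% of all genes), at a median ratio of 0.03. Hs3st5, a 3-O-sulfotransferase like the gate gene, stood at 327, 326, 322, 324, 355 and 379 CPM in libraries 1 to 6 against 115 to 149 CPM (ratio 1.39). Sulf1, which removes 6-O-sulfates outside the cell, stood at 91.6 to 117 against 34.0 to 45.8 CPM. Hs3st2 stood at 220 to 317 CPM, against 112 to 161 CPM in the other excitatory and 30.2 to 65.3 CPM in the Cux2 nuclei, and was called only against the latter. The N-deacetylase and N-sulfotransferase Ndst4 was lower (20.2 to 36.5 against 71.2 to 127 CPM). The 6-O-sulfotransferase Hs6st3 had ratios of -1.26 and -1.64, the second of which met the call. Summed over the 20 genes of the list, the selected nuclei held 2896 to 3351 CPM and the other excitatory nuclei 3524 to 3831 CPM.

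Of 16 ionotropic glutamate receptor genes tested, 1 was called higher and 0 lower than in the other excitatory nuclei, against 0.707% and 0.783% of all genes, at a median ratio over the list of -0.02. It was Grik3. Grik4, the high-affinity kainate subunit, stood at 305 against 135 CPM and was called against the Cux2 nuclei (ratio 1.32) but not against the other excitatory ones (1.05). The AMPA receptor subunits Gria1 to Gria4 had ratios between -0.42 and 0.07. Of the metabotropic receptors, 0 of 6 were called against the other excitatory nuclei, and Grm3 (ratio 1.20) and Grm8 (ratio 1.74) were called higher than in the Cux2 nuclei. Of 11 GABA-A receptor subunits, 0 were called, and Gabra2 was lowest at a ratio of -0.99, with 131 to 158 CPM against 242 to 291 CPM in the other excitatory nuclei. Gabra5, a subunit of extrasynaptic receptors, was called higher than in the Cux2 nuclei (83.1 to 113 against 34.7 to 56.1 CPM).

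Of 13 receptor genes for modulators tested, 2 were called higher (0.707% of all genes), of which Hcrtr2 reached 10 CPM in the selected nuclei only. The serotonin receptor gene Htr1f stood at 602, 509, 471, 560, 590 and 594 CPM in libraries 1 to 6, against 159 to 223 CPM in the other excitatory and 50.4 to 87.5 CPM in the Cux2 nuclei (ratios 1.56 and 2.82). Hcrtr2, a receptor for orexins, stood at 36.1, 45.5, 55.0, 43.5, 59.9 and 56.4 CPM against 3.07 to 12.3 CPM (ratio 2.39). The muscarinic receptor gene Chrm3 was at 972 against 999 CPM, and Chrm1 and Chrm2 had ratios of -0.26 and -0.22. Chrna5, whose nicotinic subunit is a feature of these neurons, had 96 UMIs in all, at 2.66 to 4.88 CPM against 0.858 to 1.40 CPM, and did not reach the 10 CPM needed for the test.

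Against the Cux2 nuclei, 1 of 25 potassium and HCN channel genes was called higher and 3 lower. The shares of all genes there were 1.72% and 1.21%. Against the other excitatory nuclei, the class of the values that follow, both lists of channel genes held 1 called gene each. This gives no direction for either list. Of 25 potassium and HCN channel genes, 0 were higher and 1 lower. It was Kcnb2, a delayed rectifier, at 416 to 566 against 1023 to 1210 CPM. Kcnip4, an accessory subunit of A-type channels, stood at 5682, 6168, 6267, 5847, 5914 and 7229 CPM against 11240 to 14560 CPM, a ratio of -0.997 in the median that fell short of 2-fold in some libraries. It accounted for much of the difference in the sum of the list, 17460 to 19690 CPM against 24990 to 28960 CPM. Of 16 sodium and calcium channel genes, the calcium channel accessory subunit Cacna2d3 was lower (349 to 495 against 930 to 1040 CPM). Of 19 genes of synaptic adhesion and release, 0 were called, which at 0.707% and 0.783% of all genes is no result about the list. Lrrtm4, a postsynaptic adhesion protein, had a ratio of -1.29 (2619 against 5935 CPM, medians) and Nxph2, a ligand of neurexins, of 2.45 (10.9 against 1.33 CPM). Nxph2 reached 10 CPM in the selected nuclei only, so that its entry favoured a higher level there.

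The genes at the centre of the study differed in how they compared with the other excitatory nuclei. Npc1 overlapped with them, while the ranges of Cyp46a1, Ezh2 and Kcna6 did not overlap, without meeting the 2-fold call. Of all 9329 genes tested, 1500 were higher and 1678 lower than in the other excitatory nuclei in 6 of 6 libraries. The same direction in every library was thus common, and the share of all genes without overlap was not counted. Npc1 stood at 22.6, 25.1, 23.6, 24.0, 23.5 and 27.6 CPM in libraries 1 to 6 and at 16.9 to 26.1 CPM in the other excitatory nuclei, a ratio of 0.06. No library stood apart from the rest in Npc1. Of 19 genes of cholesterol transport and turnover tested, 0 were called against the other excitatory nuclei and 0 against the Cux2 nuclei, at median ratios of 0.02 and 0.07. With 0.707% and 0.783% of all genes called against the first class and 1.72% and 1.21% against the second, these counts are no result about the list. Cyp46a1, the neuronal 24-hydroxylase that clears cholesterol from the brain, had a ratio of -0.72, with 12.7 to 25.9 against 26.4 to 45.8 CPM, so that the ranges did not overlap. The receptor ligand Apoe, made mostly by astrocytes, was at 132 to 340 CPM against 138 to 417 CPM. Of 8 writers and erasers of H3K27 methylation and acetylation 0 were called, a count that is no result about so short a list. Ezh2, a catalytic subunit of the Polycomb complex, stood at 22.7 to 31.2 against 16.6 to 22.4 CPM (ratio 0.40) and was higher in 6 of 6 libraries. This did not hold in every setting. Its ratio in the lowest library was -0.175 at 20 Hs3st4 UMIs, -0.099 with all 3 of Foxp2, Tle4 and Zfpm2, and -0.294 after thinning. The demethylases Kdm6a and Kdm6b had ratios of -0.14 and -0.01. Of the neuronal genes Lhfpl4, Cpeb1 and Kcna6, whose promoters the study examined, the first 2 had ratios of -0.10 and -0.13. Kcna6, a Kv1 potassium channel, stood at 49.0, 56.6, 64.4, 52.7, 52.1 and 38.6 CPM against 27.9, 30.3, 27.7, 30.3, 24.7 and 19.6 CPM. It was higher in every library, but its ratio of 0.91 met the 2-fold call only against the Cux2 nuclei (1.41).

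The lists of other cortical and forebrain programmes were short, and with 0.707% of all genes called higher and 0.783% lower, a count of 0 in them is no result about them. None of 3 layer 6b, 3 near-projecting, 5 layer 5 extratelencephalic, 3 layer 4, 3 hippocampal, 2 thalamic, 6 immediate early and 7 FOXP and Groucho family genes tested was called against the other excitatory nuclei. Tshz2 stood at 369 to 448 against 139 to 222 CPM (ratio 1.20) and Zbtb20 at 384 to 577 against 356 to 685 CPM (ratio 0.11). Of the Groucho genes, Tle1 and Tle3 had ratios of -0.97 and -1.48, with 25.7 and 5.78 CPM against 51.3 and 16.2 CPM. Foxp4 had a ratio of 0.62 and reached 10 CPM in the selected nuclei only, so that its entry favoured a higher level there. Of 5 intratelencephalic and claustrum genes tested, Ntng2 was lower. Against the Cux2 nuclei Cdh9 (259 against 54.1 CPM) and Sulf2 (74.5 against 20.9 CPM) of that list were called higher. Of 10 neuropeptide genes 1 was tested, Cck, at 19.0 to 53.0 CPM against 33.9 to 70.5 CPM.

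Markers of other cells were present, with summed levels that overlapped those of the other excitatory nuclei. The 6 oligodendrocyte genes summed to 128 to 1088 CPM (194 to 1253 CPM in the other excitatory nuclei), the 6 astrocyte genes to 1065 to 1541 CPM (860 to 1631), the 5 microglia genes to 39.0 to 47.9 CPM (38.8 to 58.1), the 4 endothelial genes to 26.2 to 112 CPM (40.9 to 195), the 4 OPC genes to 39.2 to 63.2 CPM (21.6 to 52.7) and the 8 GABAergic genes to 155 to 301 CPM (238 to 426). No gene of these lists was at 0 over all libraries, and none of those tested was called against the other excitatory nuclei. With 0.707% of all genes called higher and 0.783% lower, a count of 0 in such short lists is no result about them. The limit on Gad1 and Gad2 was part of both gates and holds down GABAergic RNA in each. The microglia genes were not tested, C1qa because it was below 10 CPM in both classes, and Csf1r, Cx3cr1, P2ry12 and Tmem119 because they define the microglia class. P2ry12 stood at 17.7 to 29.0 against 16.05 to 29.05 CPM and Cx3cr1 at 9.13 to 13.7 against 8.58 to 16.1 CPM. The 6 striatal genes summed to 853 to 1107 CPM (884 to 1380), most of it Pde10a (778 to 1011 CPM), while Drd1 stood at 6.31 to 11.3 CPM.

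The gate did not yield 1 uniform cell type. Subsets were defined with genes outside the gate, and except for that with layer 6b genes their limits were chosen after the values had been seen, so they are a description only. Nuclei with at least 10 UMIs of Tshz2 and 2 of Vwc2l numbered 183 (7.82%, 6.76 to 8.98), between 6.49% and 9.66% of the selected nuclei in each library. Tshz2 and Vwc2l mark near-projecting neurons of layers 5 and 6, which have short axons. The other 4 genes of that list, which the split did not use, were higher too. Compared with the 1732 nuclei left after removing 5 subsets, Trhr was at 30.6 against 2.27 CPM, Lypd1 at 102 against 13.0 CPM, Slc17a8 at 15.8 against 3.16 CPM and Sla2 at 4.57 against 0.720 CPM. Genes of other lists were higher as well, among them the layer 4 genes Rorb (183 against 76.0 CPM) and Kcnh5 (189 against 83.0 CPM) and the upper-layer gene Cux1 (145 against 73.0 CPM), and 26 of the 183 nuclei also belonged to a subset with Cux2 UMIs. The leading genes of the subset, which had no part in the gate, were Kcnip1 (388 against 26.8 CPM), Dkk2, Sntb1, Grik1 (812 against 65.9 CPM) and Lcp1, with the same sign in 6 of 6 libraries. Syt6 was low, at 15.1 against 144 CPM, as was Thsd7b, at 173 against 778 CPM. Other identity genes differed little, among them Grik3 (425 against 451 CPM), Sox5 (725 against 735 CPM) and Bcl11b (215 against 205 CPM). Foxp2 reached 2 UMIs in 59.6% of these nuclei, against 83.6% of the 1732, although their median depth was greater, at 13063 against 9192 UMIs.

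Nuclei with at least 20 UMIs each of Zbtb20 and Epha6 numbered 130 (5.55%, 4.66 to 6.56), between 4.62% and 6.59% by library. Of the identity genes outside the gate, they carried Syt6 at 19.2 against 144 CPM, Garnl3 at 194 against 1285 CPM and Grik3 at 82.9 against 451 CPM, while Thsd7b (618 against 778 CPM) and Crym (63.7 against 70.7 CPM) differed less. Their leading genes were Dpf3 (195 against 8.92 CPM), 2310002F09Rik, Il16, Cntnap5c (854 against 58.1 CPM) and Ccbe1 (259 against 17.2 CPM), each with the same sign in 6 of 6 libraries. Zbtb20 itself was at 2989 CPM. Foxp2 (134 against 622 CPM, at 2 UMIs in 26.9% of them) and Tle4 (225 against 591 CPM) are gate genes, whose levels the selection set in part. Their median depth of 16583.5 UMIs was well above the 9192 of the 1732, and the part of droplets with more than 1 nucleus was not tested. In Syt6, Garnl3 and Grik3, which the gate did not use, the data go against the label for these nuclei, and they are called here by their genes.

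Layer 6b lies below layer 6, over the white matter, and derives in part from the subplate. Nuclei with at least 2 of its genes Cplx3, Ccn2, Nxph4 and Moxd1 numbered 63 (2.69%, 2.07 to 3.43), between 7 and 16 in each library, and 2070 nuclei had none of the 4. The share was 0.943% (21 nuclei) after thinning to 5000 UMIs and 0.598% (14 nuclei) when 3 of the 4 genes were asked for. Compared with the 2070 nuclei, Inpp4b (1415 against 189 CPM), Lpar1, a lysophosphatidic acid receptor (113 against 12.9 CPM), and Svil (279 against 41.4 CPM), which are layer 6b genes that the split did not use, were higher. The other such gene, Trh, had 0 UMIs in the subset and 0.327 CPM in the 2070 nuclei. The genes of highest ratio were Adgrg6, Fbxl7, Col19a1, Galnt10, Lpar1, Gm45321, Inpp4b, Atp10a, Tmem163 and 4930555F03Rik, each higher in 6 of 6 libraries. Nr4a2 was at 77.6 against 20.5 CPM. Tshz2 was at 62.5 against 429 CPM, and Foxp2 reached 2 UMIs in 55.6% of the layer 6b nuclei. The identity genes outside the gate did not go 1 way. Syt6 (13.1 against 114 CPM), Garnl3 (390 against 1061 CPM) and Crym (21.2 against 65.3 CPM) were lower. Sulf1 (199 against 96.05 CPM), Grik3 (482.5 against 385 CPM) and Nfia (583 against 416 CPM) were higher. After thinning, Moxd1 was found in 2.61% of all selected nuclei (1.98 to 3.36, 4.27% unthinned), in 1.43% of the other excitatory nuclei (0.987 to 2.00, 2.44% unthinned), in 1.05% of the Cux2 nuclei (0.588 to 1.72, 1.76% unthinned) and in 3.70% of microglia (2.13 to 5.95, 4.48% unthinned). Its share in the selected nuclei was not above that of the 432 microglia deep enough to be thinned.

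The other 2 subsets were deep as well. At least 2 UMIs of Cux2 were found in 220 nuclei at a median of 18074.5 UMIs, which had Rorb, a layer 4 gene, at 325 against 76.0 CPM, Cux1 at 248 against 73.0 CPM, Mobp at 147 against 32.6 CPM and Syt6 at 53.4 against 144 CPM. At least 20 UMIs summed over the 6 oligodendrocyte genes were found in 108 nuclei at a median of 16466.5 UMIs. Their number ran from 3 to 52 by library, or from 0.730% to 11.4% of the selected nuclei. Their leading genes were St18 (571 against 19.1 CPM), Prr5l and Sec14l5, and Foxp2 was at 321 against 622 CPM. These subsets shared 35 nuclei. Nuclei with at least 20 oligodendrocyte UMIs, Mobp included, had been removed from the 1732 but not from the Cux2 subset. The difference in Mobp was thus set in part by the selection. The selected nuclei were also divided by depth into 4 groups of 585 or 586. In the shallowest group (2338 to 7550 UMIs) Syt6 was at 157 CPM, Garnl3 at 1478 CPM and Cux2 at 19.8 CPM, and 1.03% of nuclei had 2 or more UMIs of Cux2. In the deepest group (14554 UMIs and over) Syt6 was at 69.1 CPM, Garnl3 at 713 CPM and Cux2 at 67.0 CPM, and the share was 24.9%. Here too the part of mixed droplets was not tested.

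The remaining 1732 nuclei, 74.0% of those selected and 68.6% to 77.6% in each library, were the largest group. Of the gate genes, whose levels the selection set in part, Hs3st4 was at 3276 CPM, Foxp2 at 622 CPM and Zfpm2 at 1358 CPM. Of those outside the gate, Syt6 was at 144 CPM and Garnl3 at 1285 CPM. With these nuclei alone, 94 genes were called higher and 163 lower than in the other excitatory nuclei, against 66 and 73 for all selected nuclei. The next 2 subsets lie among the 1732, and each was compared with those of the 1732 outside it. The 213 nuclei with at least 8 UMIs of Cdh13 and 2 of Sulf1 kept Foxp2 (615 CPM) and Syt6 (135 CPM). They were led by Vwc2, Col11a1 (91.9 against 21.5 CPM), Prss12, Svil and Rspo2, with Tshz2 at 38.2 against 181 CPM. Another 84 nuclei with at least 2 UMIs of Rxfp1, the relaxin receptor, and 1 of Cobll1 were led by Nr4a2 (125 against 18.7 CPM), Mctp2 and Gm15584. They had Brinp3 at 2379 against 598 CPM, Foxp2 at 219 CPM and Syt6 at 49.9 against 149 CPM. The identity genes Thsd7b (1441 against 741 CPM) and Grik3 (551 against 445.5 CPM) were higher in them. Nr4a2 is known from the claustrum and the deepest cortical layers.

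**Figure D4:**
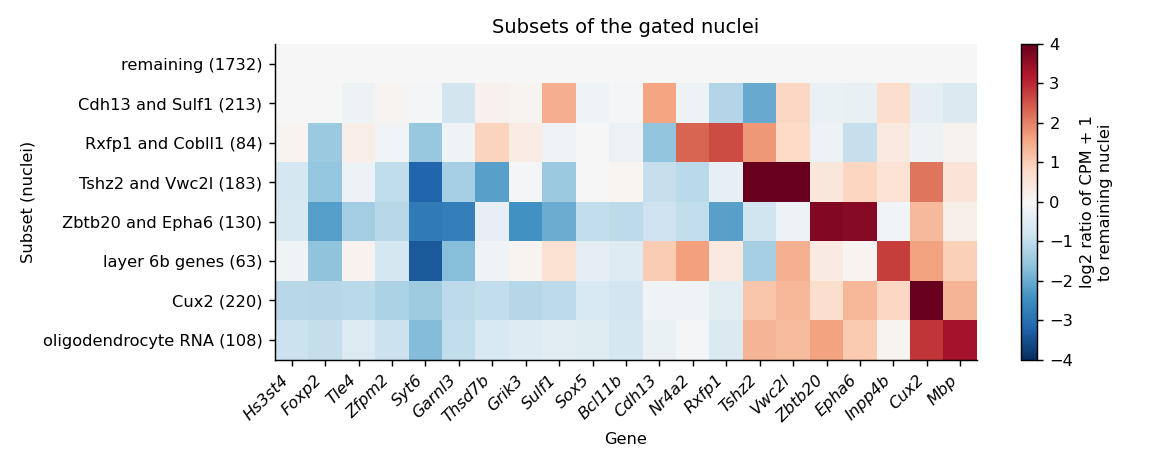
Log2 ratio of CPM plus 1 (colour, limited to values between -4 and 4) of 21 genes (x axis) in each subset of the selected nuclei (y axis, number of nuclei in parentheses) to the 1732 remaining nuclei. The Cdh13 and Sulf1 and the Rxfp1 and Cobll1 nuclei are part of the remaining nuclei, and Syt6 is low in the Tshz2 and Vwc2l (15.1 CPM), Zbtb20 and Epha6 (19.2 CPM) and layer 6b (13.1 CPM) nuclei.

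Most genes had similar levels in the 6 libraries. Of 3209 genes at 50 CPM or more in the selected nuclei, the ratio of the highest to the lowest library was 1.26 in the median, above 2 in 139 genes (4.33%) and above 4 in 30. Among the 10 genes of largest ratio were Xist, Eif2s3y, Uty, Tsix, mt-Cytb, mt-Nd4, Mobp, mt-Co2 and mt-Atp6. Xist, the RNA that silences 1 X chromosome in females, was at 1129, 3.49, 1164, 3.89, 0.443 and 365 CPM in libraries 1 to 6. Eif2s3y, which lies on the Y chromosome, was at 0, 110, 0, 118, 168 and 0 CPM, where no UMI allows at most 0.703 CPM (3 counts). The libraries thus fell into 2 sets of 3, and the labels give no sex. Xist in library 6 was below that in libraries 1 and 3, and the other excitatory nuclei of that library showed the same (358 against 1066 and 1203 CPM).

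Mitochondrial, myelin and cytoplasmic transcripts came next in spread. The mitochondrial transcript mt-Co3 was at 151, 340, 241, 109, 68.5 and 37.7 CPM in libraries 1 to 6. Mbp, the gene of myelin basic protein, was at 424, 562, 157, 120, 345 and 80.6 CPM, and at 817, 722, 238, 210, 345 and 123 CPM in the other excitatory nuclei. The cytoplasmic transcript of Gapdh was at 119, 139, 191, 112, 53.2 and 34.2 CPM. Libraries 5 and 6 were low in mt-Co3 and Gapdh, and libraries 3, 4 and 6 in Mbp. Library 6 was the lowest for 101 of the 139 genes and library 3 the highest for 86. Homer1, a postsynaptic scaffold gene with an activity-induced short form, ran differently, at 184, 368, 408, 465, 758 and 533 CPM against 206, 329, 364, 383, 459 and 356 CPM in the other excitatory nuclei. Its level was lowest in library 1 and highest in library 5 in both. Of the other activity-regulated genes, Arc was at 3.77, 10.3, 13.1, 14.9, 26.2 and 5.86 CPM and Egr1 at 21.9, 23.3, 32.1, 38.7, 27.3 and 12.9 CPM. Whether these differences go with genotype cannot be told apart from sex or from the preparation of each library, since no source ties a library to a mouse.

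**Figure D5:**
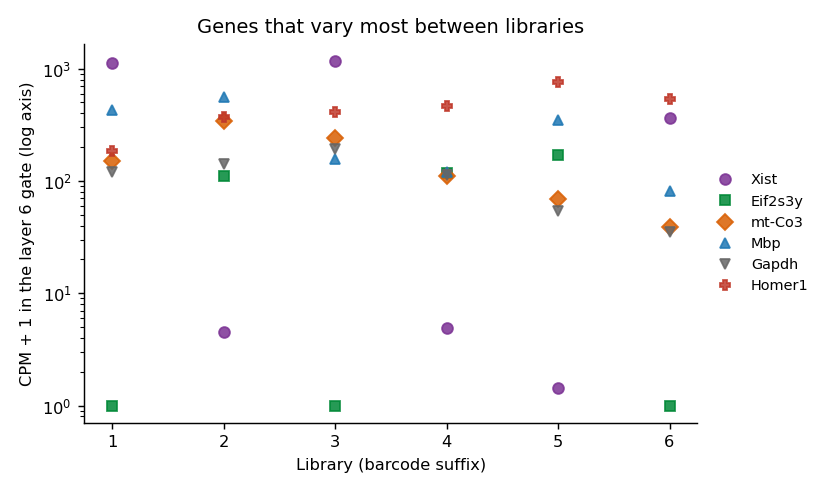
Level of 6 genes in the selected nuclei (y axis, CPM plus 1, log scale) in each of the 6 libraries (x axis), 1 point per gene and library. Xist is high in libraries 1, 3 and 6, where Eif2s3y has no UMI, and mt-Co3 and Gapdh are lowest in library 6, at 37.7 and 34.2 CPM.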

How the data were processed

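The authors deposited 1 matrix of UMI counts for 6 single-nucleus libraries (10x Genomics, single cell 3' chemistry), with 32285 genes and 75878 barcodes. Per the file headers, the deposited counts were written by Cell Ranger 6.0.0 as whole numbers without normalization. The submitters' processing notes name Cell Ranger 2.1.1 and mm10. The authors' methods describe STARsolo on GRCm38, EmptyDrops, DoubletFinder, a mitochondrial limit and removal of genes under 10 UMIs. Not all of these steps had been applied, since 7041 genes had under 10 UMIs and 11 barcodes were at or above 10% mitochondrial UMIs. These 11 were left out.

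Nuclei were selected by the limits given above, and no clustering and no doublet caller was used. The members, the gene lists and the comparisons were chosen with earlier results of these data known. UMIs were summed per gene, library and gate and scaled to CPM of the gate. Genes at 10 CPM or more in either gate, other than those of the gates, were compared as log2 of CPM plus 1. A call needed a 2-fold difference the same way in each library. Named genes are those of the gates and lists, the 15 highest and 10 lowest against other excitatory nuclei (10 and 5 for the other comparisons) among called genes at 50 CPM or more, the 10 highest of the layer 6b subset and the 10 of widest library spread. Further genes named in the text (Homer1, mt-Co3, Mbp and Gapdh, and the leading genes of the other subsets) were chosen after their values were seen. Intervals are exact Poisson or Clopper-Pearson at 95% and cover counting error only. Thinning drew 5000 UMIs per nucleus without replacement. No source used here ties a barcode suffix to a mouse, so no test between genotypes was made, and no p-value is given. Python 3.11.15, numpy 2.4.6, scipy 1.17.1, pandas 2.3.3, R 4.3.3 and edgeR 4.0.16 (TMM factors only) were used. Depth per library was 51343653 to 107583300 UMIs, and the selected nuclei of a library held 4270184 to 6020862 UMIs. Alternatives changed the limits of the gate, the depth, the scaling, the minimum level and the libraries included. Some of the genes that this rule names are not reported here.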

Additional observations from a re-analysis of the deposited data

How the results depend on the processing

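Over 16 genes and the 18 settings that can change a single ratio, 511 values stayed between the lowest and the highest library of the main setting. The other 65 fell outside that range. No called ratio changed sign. That of Npc1, near 0 and not called, ran from -0.07 to 0.18 against the other excitatory and from -0.10 to 0.19 against the Cux2 nuclei. Syt6, Garnl3, Grik3, Cdh18, Thsd7b, Htr1f and Pdzrn3 kept their calls against both excitatory classes in all 12 of those settings that keep 6 libraries (leaving out a library cannot end a call), with Syt6 between 3.74 and 4.67 against the other excitatory nuclei. Against that class Hs3st5 and Sulf1 kept theirs in 10 of 12 and Gpc6 in 11. Kcna6 kept its call against the Cux2 nuclei in 8 of 12. The selected share of nuclei was 3.57% at 5 Hs3st4 UMIs, 2.23% at 20, 1.95% with all 3 of Foxp2, Tle4 and Zfpm2, 2.65% without nuclei above the 95th percentile of UMIs and 1.68% without those with 10 or more glial UMIs, which left 419 of the 2341 selected nuclei. Without nuclei of 20 or more oligodendrocyte UMIs, a setting added after seeing the data, it was 3.22%. The layer 6b share was 1.43% (6 nuclei) under the glial limit, 0.943% after thinning and 0.598% with 3 of the 4 genes. Counts of genes lower than in the other excitatory, Cux2 and Fezf2 nuclei were less stable than counts of higher genes. At 5 Hs3st4 UMIs 47 were lower than in the other excitatory and 24 than in the Fezf2 nuclei, and at 20 UMIs 85 were lower than in the latter. With all 3 markers the counts of lower genes were 132, 176 and 107, without the deepest nuclei 128, 193 and 139, and in the 1732 remaining nuclei (added after seeing the data) 163, 222 and 137. The last counts were set in part by the removal of subsets high in other genes. The glial limit left 96 genes higher than in the Cux2 and 31 than in the Fezf2 nuclei. A minimum of 50 CPM, which tests fewer genes, left 37 higher and 40 lower than in the other excitatory, 90 higher than in the Cux2, and 33 higher and 21 lower than in the Fezf2 nuclei. TMM scaling gave 78 higher and 62 lower (66 and 73 without it) for the other excitatory nuclei, 153 and 121 for the Cux2 nuclei and 74 and 20 (53 and 48 without it) for the Fezf2 nuclei, whose median ratio over all genes went from -0.11 to 0.09. The causes of these changes were not tested. Leaving out 1 library at a time, which lets more genes meet the call, gave 68 to 77 higher and 75 to 88 lower genes against the other excitatory, 162 to 168 and 117 to 144 against the Cux2, and 54 to 59 and 54 to 73 against the Fezf2 nuclei, a selected share of 2.99% to 3.18% and a layer 6b share of 2.44% to 2.90%; the highest count against the Fezf2 nuclei, 73 lower genes, came without library 6. The intended limit of 3 Fezf2 UMIs gave no value, since 6 nuclei in 4 libraries met it. Genes under about 1 CPM in a library rest on few UMIs, since 3 counts correspond to 0.498 to 0.703 CPM. No paired analysis was possible because the labels number the mice of each genotype but no source ties a library to a mouse, and no test was made.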
